A study of Mus musculus with 4 samples.

Results

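Carriers of the plasma membrane for sugars, amino acids, small peptides and monocarboxylates were followed by RNA sequencing in small-intestinal adenomas of mice. They were taken as the rows whose symbol begins with Slc, one of the family numbers 1, 2, 3, 5, 6, 7, 15, 16, 36, 38 or 43, the letter A and a number. A rule by symbol also takes in carriers of internal membranes, such as Slc2a8 and Slc38a7. Carriers of other substrates, such as creatine and taurine, are counted too. The rule found 107 rows with 106 symbols, of 29871 symbols in the table. Slc43a2 stood on 2 rows, of which the higher was kept. Slc7a6os met the rule by its letters alone, since it encodes no carrier and overlaps Slc7a6 on the other strand, and it was left out of the counts. This left 105 carriers, of which 62 had a mean of at least 1 FPKM (fragments per kilobase of transcript, scaled to the size of the library) over the 4 libraries and were tested.

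The tumours came from 2 groups with 2 libraries each. The knockout group is labelled PAF KO; APC Min/+, and the control group APC Min/+. Both thus carry the Min allele, which truncates one copy of the tumour suppressor Apc, and they differ in PAF, a small protein that binds the replication clamp PCNA. The labels give neither the age of the mice nor the altered part of the PAF gene, and they do not say whether tumours were pooled or whether libraries of a group came from separate mice. The row of the PAF gene, 2810417H13Rik, read 4.13 and 11.4 FPKM in the knockout libraries, against 17.9 and 17.8 FPKM in the control libraries (limma adjusted p = 0.398), so transcript remained in both libraries labelled knockout.

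The knockout libraries differed far more from each other than the control libraries did. Over the tested rows the median absolute difference on the log2(FPKM + 1) scale was 0.49 between the knockout libraries and 0.088 between the controls. The median squared difference within a pair was 106 times that of fragment counting in the knockouts (1991 genes with 1 transcript) and 2.64 times in the controls (1997 genes). Such a spread in the controls may be technical, and the p-values below measure only the spread between these libraries. Xist, which silences an X chromosome in females, read 46.4 FPKM in knockout library 2 and at most 0.00861 FPKM in the other 3, so sex differed within the knockout group. Depth was estimated from the values themselves: on a transcript of 2 kilobases, 1 FPKM stood for about 30.6 and 48.4 fragments in the knockout libraries and 26.2 and 35.3 fragments in the controls.

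Absorptive enterocytes take up sugars, amino acids and peptides at the apical membrane, which faces the gut lumen, mostly with sodium or protons, and pass them to the blood through other carriers at the basolateral membrane. Growing cells, tumour cells included, are known instead for carriers that bring in glucose, glutamine, cystine and large neutral amino acids and that move lactate. Several carriers work only as pairs, a light chain of the Slc7 family held at the membrane by a heavy chain, Slc3a1 or Slc3a2.

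Most carriers lay lower in the knockout adenomas, but none was called. Limma on log2(FPKM + 1), with Benjamini-Hochberg adjustment over all 13716 tested rows, called 0 of 62 carriers at an adjusted p under 0.05, while 0.0729% of all tested rows were called. At an unadjusted p under 0.05 there were 7 carriers, or 11.3% of them, against 13.2% of all tested rows; 2 were higher and 5 lower, where 3.44% and 9.76% of all tested rows were. The lowest adjusted p of a carrier was 0.238 by limma. A count of 0 does not show that the levels were alike. Without knockout library 1, limma called 45 carriers and 61.2% of all tested rows, and without knockout library 2 it called 23 carriers and 20.7% of all tested rows, with the lone knockout library assumed to vary like the controls. The median log2 fold change over the 62 carriers was -0.35, beside 0.0035 over all tested rows, and the carriers' median was -0.16 with knockout library 1 alone and -0.42 with library 2 alone. Over all rows these medians were -0.11 and 0.087.

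Both knockout libraries read below both controls for 29 of the 62 carriers, or 46.8%, where 30.2% of all tested rows did so. Both read above the controls for 7 carriers, or 11.3%, against 21.5% of all rows. Taken alone, knockout library 1 lay below both controls for 40 carriers (64.5%, against 56.2% of all rows), and knockout library 2 for 42 (67.7%, against 41.7%). Levels lay above both controls for 19 carriers in library 1 (30.6%, against 31.2% of all rows) and for 20 in library 2 (32.3%, against 51.3%). In 12 carriers knockout library 1 lay above and knockout library 2 below both controls, which is 19.4% beside 7.8% of all rows. The opposite split was seen for 11 carriers, or 17.7%, beside 22.6% of all rows. Summed over all 105 carriers, levels were 1432 and 1033 FPKM in the knockout libraries and 1713 and 1678 FPKM in the controls.

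**Figure D1:**
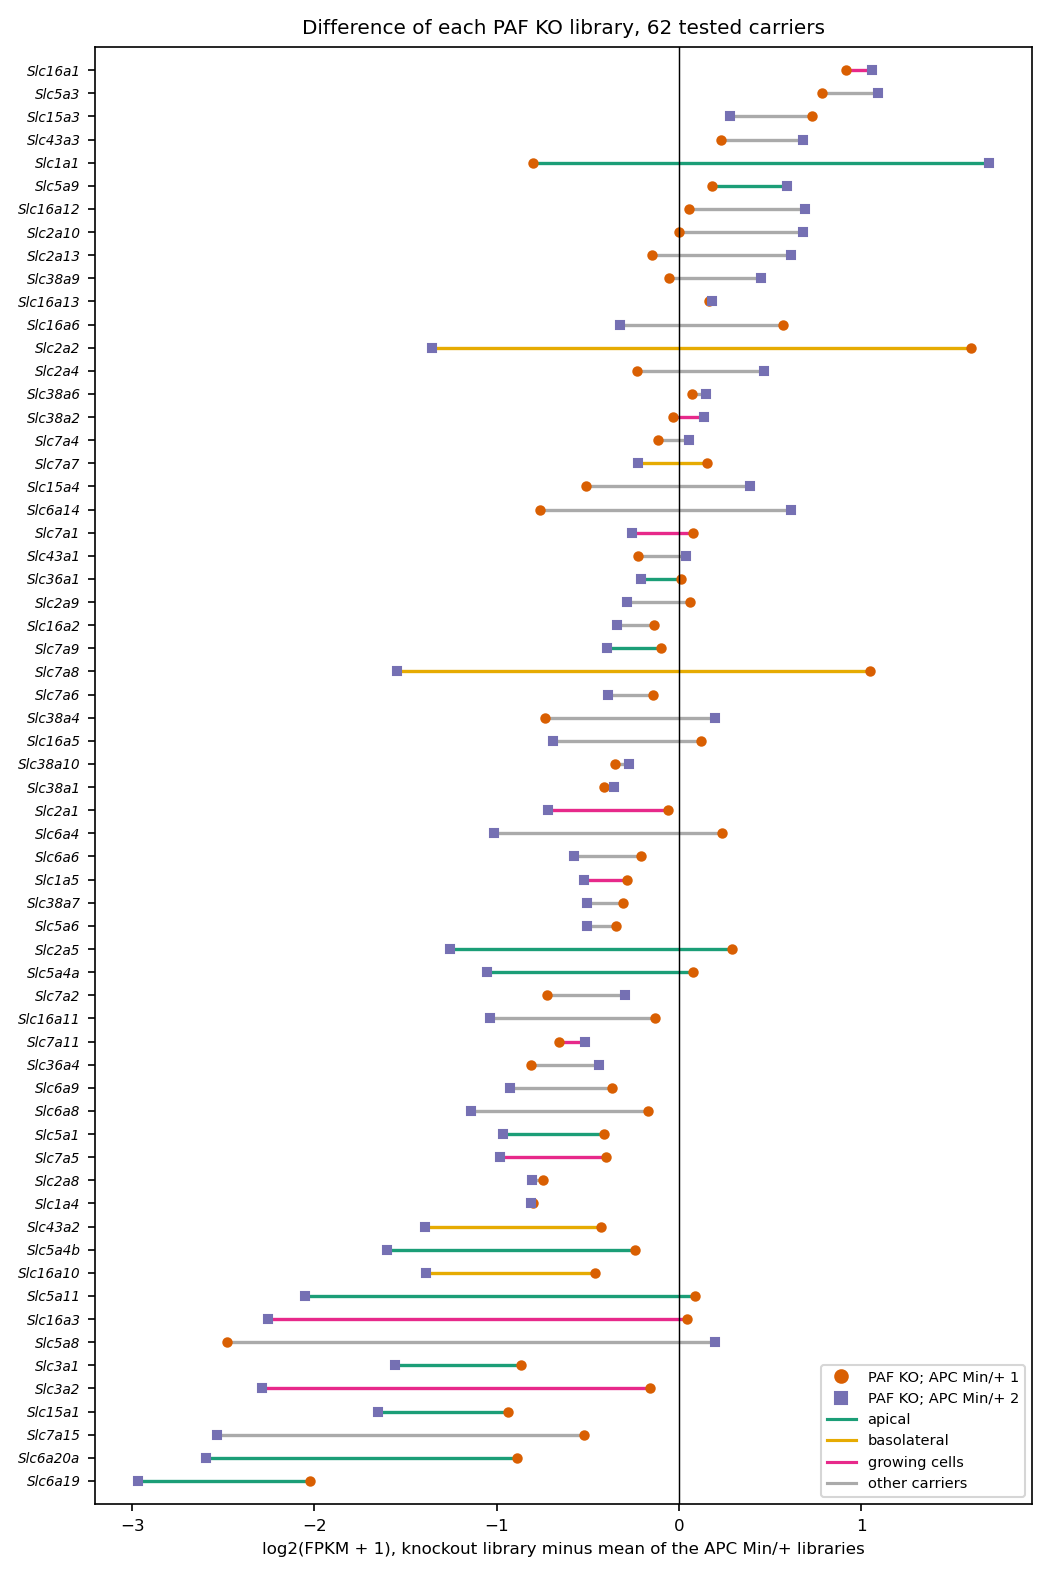
Difference of each PAF KO; APC Min/+ library from the mean of the APC Min/+ libraries, on the log2(FPKM + 1) scale, for the 62 tested carriers sorted by fold change; circles are knockout library 1, squares knockout library 2, and lines are coloured by role. Slc6a19 sits lowest with both knockout libraries far below 0, Slc16a1 sits highest with both above 0, and long lines such as those of Slc2a2, Slc7a8, Slc1a1 and Slc5a8 cross 0.

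Apical carriers of enterocytes had the lowest median of the role groups over both knockout libraries together. From knockout library 2 alone the basolateral median was lower, at -1.39, and the ranking was not tested. Of 15 listed, 13 were tested; limma called 0 of them, while 3 had an unadjusted p under 0.05, all lower (23.1%, against 13.2% of all tested rows, 9.76% lower). Their median log2 fold change was -0.69; it was -0.24 from knockout library 1 alone, -1.26 from library 2 alone, and -1.25 over both with a pseudocount of 0.1 FPKM in place of 1. Both knockout libraries lay below both controls for 7 of the 13 (53.8%, against 30.2% of all rows) and above them for 1 (7.69%, against 21.5%). Summed over the 15 carriers, levels were 223 and 161 FPKM in the knockout libraries and 365 and 346 FPKM in the controls.

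The sodium-driven carriers of neutral amino acids stood lowest. Slc6a19, also called B0AT1, is the main apical carrier of neutral amino acids and read 15.5 and 7.54 FPKM in the knockout libraries, against 71.4 and 60.8 FPKM in the controls. The groups did not overlap, and the knockout libraries held 23.4% and 11.4% of the level averaged over the controls. This gave a log2 fold change of -2.50 (SE 0.382, with 2 libraries a group; limma adjusted p = 0.238). Slc6a20a, which carries proline and other imino acids, read 12.7 and 3.20 FPKM in the knockout libraries and 25.9 and 22.9 FPKM in the controls, a log2 fold change of -1.74 (SE 0.639; limma adjusted p = 0.388). Its near copy Slc6a20b was listed at 0 and 0.0242 FPKM in the knockout libraries and at 0.201 and 0.0673 FPKM in the controls, and how reads were divided between the copies was not stated.

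The peptide carrier and the cystine carrier's heavy chain lay lower in both knockout libraries. Slc15a1, or PEPT1, which takes up dipeptides and tripeptides with protons, read 19.3 and 11.4 FPKM in the knockout libraries and 38.2 and 37.6 FPKM in the controls (log2 fold change -1.29, SE 0.298; limma adjusted p = 0.294). Slc3a1, the heavy chain of the apical cystine and dibasic amino acid carrier, read 28.4 and 17.2 FPKM in the knockout libraries and 53.2 and 52.1 FPKM in the controls (log2 fold change -1.21, SE 0.291; limma adjusted p = 0.298). Its light chain Slc7a9, the transporting subunit, read 44.3 and 35.97 FPKM in the knockout libraries against 47.5 and 47.6 FPKM in the controls, a log2 fold change of -0.25 (SE 0.183; limma adjusted p = 0.563). Per length, heavy chain over light chain was 0.640 and 0.478 in the knockout libraries and 1.12 and 1.09 in the controls. These ratios did not overlap; the smallest exact p, 2-sided, that 2 against 2 libraries can give is 0.333, so no test was made.

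Sugar carriers of the apical membrane did not share a pattern. Slc5a1, or SGLT1, the sodium glucose carrier, read 68.2 and 46.2 FPKM in the knockout libraries and 92.8 and 89.4 FPKM in the controls, without overlap (log2 fold change -0.69, SE 0.253; limma adjusted p = 0.388). The fructose carrier Slc2a5, or GLUT5, read 12.5 FPKM in knockout library 1 and 3.63 FPKM in knockout library 2, against 10.4 and 9.66 FPKM in the controls, so the knockouts lay on either side. Slc5a9, a sodium-driven carrier of mannose, was the only apical carrier above the controls in both knockout libraries, at 3.401 and 4.86 FPKM against 2.85 and 2.92 FPKM. Slc5a4a and Slc5a4b, which are close copies of each other, read 0.102 and 0.157 FPKM in knockout library 2, while knockout library 1 held 1.41 and 1.97 FPKM. In the controls Slc5a4a read 1.34 and 1.23 FPKM, and Slc5a4b 2.36 and 2.66 FPKM.

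Knockout library 2 was also low in other sodium-driven carriers that were near the control level in knockout library 1. Slc5a11, a carrier of inositol, read 4.72 and 0.299 FPKM in the knockout libraries and 4.30 and 4.45 FPKM in the controls. Slc5a12, a carrier of lactate, had a mean under 1 FPKM and was not tested; it read 1.06 and 0.0679 FPKM in the knockout libraries and 1.08 and 1.40 FPKM in the controls. Slc1a1, which takes up glutamate, went the other way, with 3.69 FPKM in knockout library 1 and 25.6 FPKM in knockout library 2 against 6.95 and 7.40 FPKM in the controls. Slc36a1, a proton-driven carrier of small amino acids, overlapped between the groups, at 6.13 and 5.12 FPKM in the knockout libraries and 6.73 and 5.49 FPKM in the controls.

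**Figure D2:**
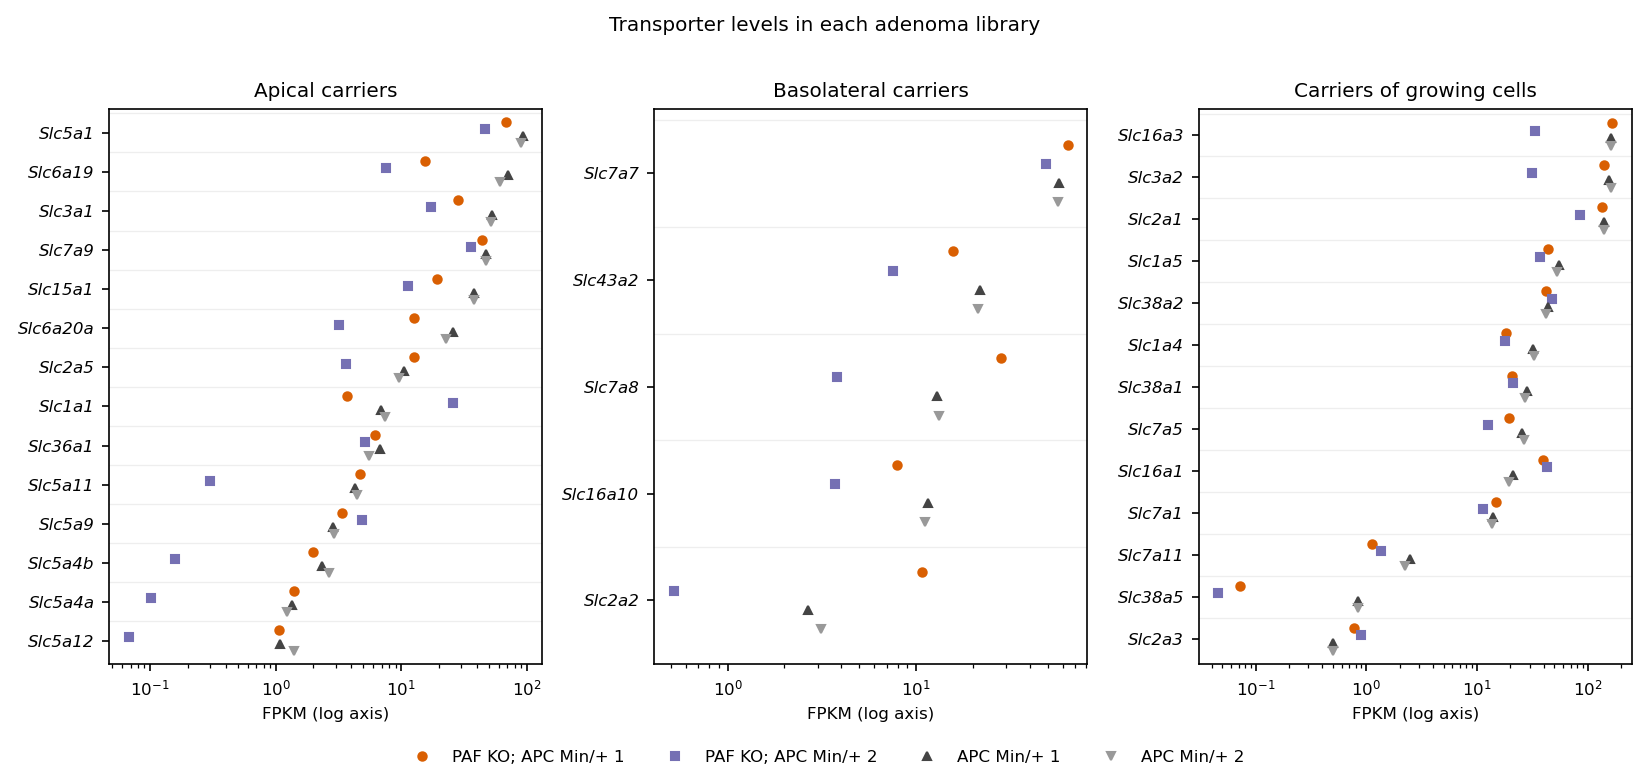
FPKM of each apical, basolateral and growing-cell carrier in every library, on a log axis, with the PAF KO; APC Min/+ libraries as coloured circles and squares and the APC Min/+ libraries as grey triangles; Slc6a20b, listed at 0 in knockout library 1, is not drawn. The grey triangles nearly coincide for most carriers, Slc6a19 lies left of them in both knockout libraries, and Slc16a1 lies right of them in both.

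Basolateral carriers were the group on which the knockout libraries parted most. All 5 listed were tested and limma called 0, with 0 at an unadjusted p under 0.05; the median log2 fold change was -0.25, 0.15 from knockout library 1 alone and -1.39 from library 2 alone. Slc2a2, or GLUT2, by which glucose and fructose leave the enterocyte, read 10.8 FPKM in knockout library 1 and 0.518 FPKM in knockout library 2, against 2.66 and 3.12 FPKM in the controls. Slc7a8, or LAT2, which exchanges neutral amino acids, read 28.1 and 3.82 FPKM in the knockout libraries and 12.9 and 13.2 FPKM in the controls. For both genes knockout library 1 was the highest of the 4 libraries and knockout library 2 the lowest.

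The exit routes of aromatic and branched amino acids were lower in both knockout libraries. Slc16a10, or TAT1, which releases aromatic amino acids, read 7.96 and 3.72 FPKM in the knockout libraries and 11.6 and 11.1 FPKM in the controls (log2 fold change -0.92, SE 0.368; limma adjusted p = 0.402). Slc43a2, or LAT4, which lets out branched-chain and other large amino acids, read 15.7 and 7.56 FPKM in the knockout libraries and 21.8 and 21.2 FPKM in the controls (log2 fold change -0.91, SE 0.380; limma adjusted p = 0.414). Slc7a7, the light chain that exports dibasic amino acids, was the most even of the group, at 63.6 and 48.7 FPKM in the knockout libraries against 57.4 and 56.8 FPKM in the controls.

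Carriers of growing cells lay lower too. Of 13 listed, 11 were tested and limma called 0, while 1 was higher and 1 lower at an unadjusted p under 0.05 (18.2% in all, against 13.2% of all tested rows). Their median log2 fold change was -0.40, and -0.16 and -0.52 from knockout libraries 1 and 2 alone. Both knockout libraries lay below both controls for 7 of the 11 (63.6%, against 30.2% of all rows) and above them for 1 (9.09%, against 21.5%). Both this group and the apical group thus had negative medians; the difference between them was not tested.

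Uptake of large neutral amino acids and glucose was represented by 3 abundant transcripts. Slc7a5, or LAT1, which imports leucine and other large neutral amino acids, read 19.4 and 12.7 FPKM in the knockout libraries and 25.6 and 26.4 FPKM in the controls (log2 fold change -0.69, SE 0.256; limma adjusted p = 0.388). Its heavy chain Slc3a2 read 142 FPKM in knockout library 1 and 31.7 FPKM in knockout library 2, against 154 and 163 FPKM in the controls; the log2 fold change of -1.23 (SE 0.788; limma adjusted p = 0.532) was -0.16 without knockout library 2. Slc2a1, or GLUT1, the common glucose carrier of dividing cells, read 134 and 84.7 FPKM in the knockout libraries and 141 and 139 FPKM in the controls. Its log2 fold change was -0.39 (SE 0.288; limma adjusted p = 0.563), and -0.060 without knockout library 2. The low values of Slc3a2 and Slc2a1 were thus chiefly those of knockout library 2.

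Slc3a2 is shared by 6 light chains, Slc7a5, Slc7a6, Slc7a7, Slc7a8, Slc7a10 and Slc7a11. Per length, Slc3a2 over their sum was 1.12 and 0.403 in the knockout libraries and 1.35 and 1.43 in the controls. The sum of light chains was 127 and 78.5 FPKM in the knockout libraries, against 114 and 115 FPKM in the controls, so knockout library 2 held less of both and proportionally less of the heavy chain. Slc7a6, a further light chain, read 14.3 and 11.9 FPKM in the knockout libraries and 16.1 and 15.7 FPKM in the controls; it was named after its values were seen.

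Carriers of serine, alanine, glutamine and cystine were close between the knockout libraries. Slc1a4, or ASCT1, which exchanges alanine, serine and cysteine, read 18.1 and 17.9 FPKM in the knockout libraries and 32.1 and 32.4 FPKM in the controls, so libraries of a group lay close together and the groups far apart. Its log2 fold change was -0.81 (SE 0.147; limma adjusted p = 0.257). The glutamine carrier Slc1a5, or ASCT2, read 44.1 and 37.3 FPKM in the knockout libraries against 55.5 and 52.4 FPKM in the controls, and Slc38a1, or SNAT1, read 20.5 and 21.3 FPKM against 28.1 and 27.1 FPKM. Neither overlapped between groups, with log2 fold changes of -0.40 (SE 0.176) and -0.38 (SE 0.149). Slc7a11, or xCT, the light chain that takes in cystine for glutamate, read 1.13 and 1.35 FPKM in the knockout libraries and 2.48 and 2.25 FPKM in the controls (log2 fold change -0.59, SE 0.209; limma adjusted p = 0.379).

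Slc38a2, or SNAT2, which amino acid shortage is known to induce, differed little, at 42.1 and 47.6 FPKM in the knockout libraries and 43.8 and 42.4 FPKM in the controls. Slc7a1, or CAT1, the arginine carrier, read 14.7 and 11.4 FPKM in the knockout libraries and 14.0 and 13.7 FPKM in the controls. A pair of listed carriers were under the mean of 1 FPKM. Slc38a5, a glutamine carrier, read 0.0720 and 0.0461 FPKM in the knockout libraries and 0.834 and 0.848 FPKM in the controls, and Slc2a3, or GLUT3, read 0.775 and 0.892 FPKM against 0.495 and 0.497 FPKM.

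Slc16a1 was the clearest exception. This gene encodes MCT1, which carries lactate, pyruvate, butyrate and ketone bodies with protons, and it read 39.1 and 43.3 FPKM in the knockout libraries against 21.0 and 19.6 FPKM in the controls. The groups did not overlap, and the knockout libraries held 1.93 and 2.13 times the average of the controls. Its log2 fold change of 0.99 (SE 0.160, limma adjusted p = 0.242) was the largest among the 62 carriers on the log2(FPKM + 1) scale. That scale understates changes of low genes. As a plain ratio Slc5a3 rose more, to 3.14 and 4.38 times the average of the controls, where it read 0.533 and 0.479 FPKM. Slc16a3, or MCT4, which is known for lactate export from glycolytic cells, read 167 and 33.1 FPKM in the knockout libraries and 161 and 162 FPKM in the controls, so only knockout library 2 was low. Per length, Slc16a3 over Slc16a1 was 4.27 and 0.764 in the knockout libraries and 7.66 and 8.30 in the controls, and knockout library 2 was the only library with more Slc16a1 than Slc16a3.

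**Figure D3:**
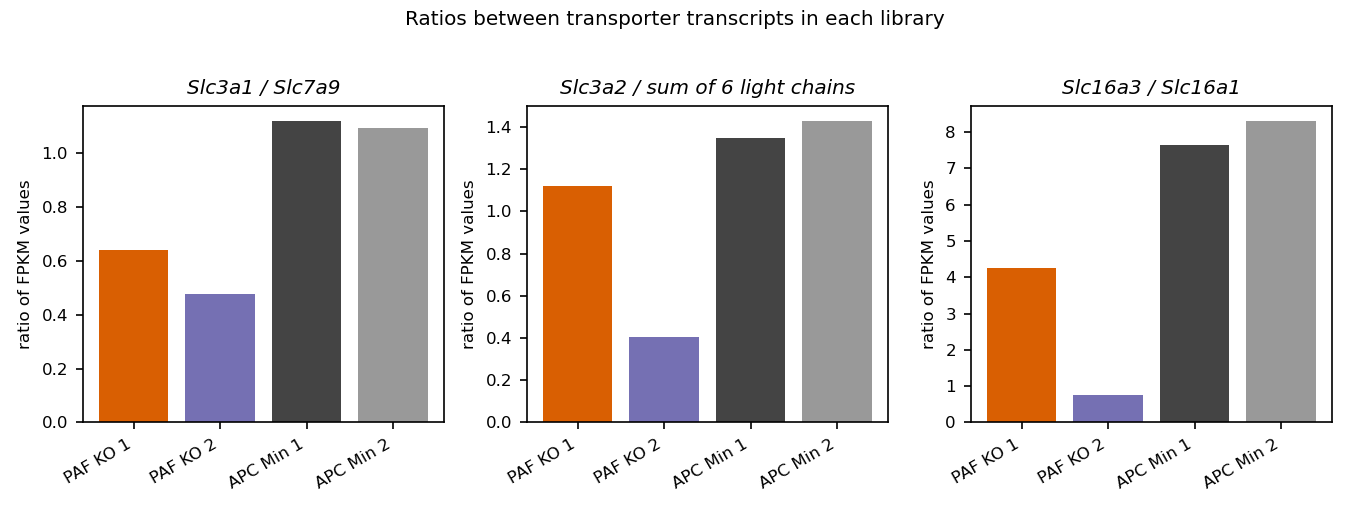
Ratios of FPKM values in each library for the cystine carrier chains Slc3a1 and Slc7a9, for Slc3a2 and the sum of its 6 light chains, and for the lactate carriers Slc16a3 and Slc16a1; bars start at 0 and each is 1 library, the PAF KO; APC Min/+ libraries left of the APC Min/+ ones. Both knockout bars are shorter than both control bars in every panel, least so for Slc3a2 in knockout library 1 (1.12, against 1.35 and 1.43).

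Promoters of Slc1a4, Slc7a11 and Slc16a1 are shown because these 3 tested growing-cell carriers did not overlap between the groups and hold a motif that was searched. Slc38a5, which was too low to be tested, also did not overlap and holds such a motif, and it is not shown. The sequences are from RefSeq (build GRCm38.p6) and hold 250 bases before the start of the gene and 10 from it, on the gene's strand. Capitals mark TGATGNAA or its reverse complement, an element of the amino acid response read by Atf4 and C/EBP factors, or CACGTG, the E-box of Myc and related factors. Slc1a4 stands at chr11:20332704-20332963 (minus strand), Slc7a11 at chr3:50443604-50443863 (minus strand) and Slc16a1 at chr3:104638414-104638673 (plus strand).
Slc1a4: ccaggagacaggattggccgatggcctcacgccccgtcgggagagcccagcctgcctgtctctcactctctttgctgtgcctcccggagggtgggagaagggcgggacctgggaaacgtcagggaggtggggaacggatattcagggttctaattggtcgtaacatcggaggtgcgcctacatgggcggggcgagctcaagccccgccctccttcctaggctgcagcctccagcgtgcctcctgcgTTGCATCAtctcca
Slc7a11: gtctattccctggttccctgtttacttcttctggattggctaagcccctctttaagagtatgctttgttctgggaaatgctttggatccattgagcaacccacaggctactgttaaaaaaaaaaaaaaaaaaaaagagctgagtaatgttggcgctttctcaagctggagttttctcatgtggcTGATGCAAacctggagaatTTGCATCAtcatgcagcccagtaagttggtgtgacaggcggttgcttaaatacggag
Slc16a1: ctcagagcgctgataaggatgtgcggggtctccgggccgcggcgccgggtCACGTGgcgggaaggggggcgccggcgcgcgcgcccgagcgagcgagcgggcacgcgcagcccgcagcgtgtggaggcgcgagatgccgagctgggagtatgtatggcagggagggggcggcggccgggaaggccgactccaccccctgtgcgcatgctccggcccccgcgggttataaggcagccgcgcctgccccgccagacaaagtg
Slc1a4 and Slc7a11 held TGATGNAA, Slc7a11 on both strands, and Slc16a1 held CACGTG. In windows of 250 bases before and 50 after the start, searched on both strands, 76 of the 105 carriers had a sequence. TGATGNAA was present in 2 of 9 growing-cell carriers with a window, in 0 of 13 apical ones and in 1 of 5 basolateral ones, beside 4.51% of 27025 genes. CACGTG was present in 2 of 9 growing-cell carriers, 2 of 13 apical ones and 0 of 5 basolateral ones, beside 8.09% of genes. It reads the same on both strands, and no motif overlapped another in the printed windows.

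Genes of the amino acid response, which Atf4 drives when amino acids are short, lay above the controls more often than below. Of 14 listed, 13 were tested and limma called 0, while 2 were higher and 2 lower at an unadjusted p under 0.05 (30.8% in all, against 13.2% of all tested rows). Both knockout libraries lay above both controls for 6 of the 13 (46.2%, against 21.5% of all rows) and below them for 4 (30.8%, against 30.2%). The median log2 fold change was 0.080, with 9 positive and 4 negative. Asns, which makes asparagine, read 55.5 and 57.5 FPKM in the knockout libraries and 36.8 and 36.9 FPKM in the controls, and the mitochondrial folate enzyme Mthfd2 read 12.3 and 13.03 FPKM against 7.34 and 7.75 FPKM. Sesn2, a leucine sensor, was lower, at 2.95 and 3.10 FPKM against 6.18 and 4.84 FPKM, and Chac1, which breaks down glutathione, read 1.48 and 1.35 FPKM against 2.42 and 2.96 FPKM. Atf4 itself read 152 and 124 FPKM in the knockout libraries and 133 and 128 FPKM in the controls.

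Most transcripts of proteins that work beside the apical carriers lay lower. Of 14 absorption partners, 13 were tested; limma called 0, and 8 were lower and 0 higher at an unadjusted p under 0.05 (61.5%, against 13.2% of all tested rows). Their median log2 fold change was -1.04, and -0.69 and -1.48 from knockout libraries 1 and 2 alone. Both knockout libraries lay below both controls for 11 of the 13 (84.6%, against 30.2% of all tested rows). The other 2, Lct among them, were above both controls in knockout library 1 and below both in library 2 (15.4%, against 7.8% of all rows). The partner that was too low to test read above both controls in both knockout libraries. The sodium proton exchanger Slc9a3, which maintains the proton gradient used by Slc15a1, read 125 and 105 FPKM in the knockout libraries and 209 and 201 FPKM in the controls (log2 fold change -0.83, SE 0.190; limma adjusted p = 0.294). Atp1b1, a subunit of the sodium pump, which powers sodium-driven uptake, read 332 and 302 FPKM in the knockout libraries and 434 and 421 FPKM in the controls, a log2 fold change of -0.43 (SE 0.191). Aminopeptidase N, encoded by Anpep, frees amino acids at the brush border and read 259 and 56.7 FPKM in the knockout libraries against 708 and 720 FPKM in the controls (log2 fold change -2.54, SE 0.808; limma adjusted p = 0.349).

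Among 9 regulators of absorptive genes limma called 0, and 3 were lower and 0 higher at an unadjusted p under 0.05 (33.3%, against 13.2% of all tested rows). Their median log2 fold change was 0.037. Maf read 15.3 and 15.8 FPKM in the knockout libraries and 27.0 and 27.6 FPKM in the controls, while Hnf4a overlapped between the groups, at 176 and 149 FPKM against 159 and 156 FPKM. Gata4, a factor of the proximal small intestine, read 56.3 FPKM in knockout library 1 and 2.25 FPKM in knockout library 2, against 8.72 and 8.16 FPKM in the controls.

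Most markers of enterocytes and of the proximal gut moved with the split between the knockout libraries, while most distal markers were lower in both. The 12 enterocyte markers summed to 16846 and 2223 FPKM in the knockout libraries and to 9297 and 10139 FPKM in the controls, with 0 of 12 at 0 in any library. The 8 proximal markers summed to 6408 and 902 FPKM in the knockout libraries and 1475 and 1733 FPKM in the controls. The 8 distal markers summed to 458 and 1105 FPKM in the knockout libraries and 1588 and 1566 FPKM in the controls, and none of either list was at 0. Of the 12 enterocyte markers 7, and of the 8 proximal markers 6, were above both controls in knockout library 1 and below both in library 2. These are 58.3% and 75.0%, against 7.8% of all tested rows, and Fabp1 and Rbp2 stood on both lists and count in each. Of the distal markers 7 of 8 lay below both controls in both knockout libraries (87.5%, against 30.2% of all tested rows). Among them was Cubn, a receptor of the ileum, at 0.875 and 1.62 FPKM against 12.9 and 13.02 FPKM in the controls. Fabp1, a fatty acid binding protein of the proximal gut, read 2367 FPKM in knockout library 1 and 40.5 FPKM in knockout library 2, against 49.7 and 50.4 FPKM in the controls. Fabp6, the ileal bile acid binding protein, read 2.59 FPKM in knockout library 1 and 634 FPKM in knockout library 2, against 956 and 926 FPKM in the controls. Some listed markers ran otherwise. The proximal marker Slc40a1 read 11.9 and 23.1 FPKM in the knockout libraries against 12.3 and 12.4 FPKM in the controls, and Onecut2 was lower in both. The distal marker Muc13 was higher in both, at 357 and 272 FPKM against 243 and 253 FPKM. Amn was lower in knockout library 2 than in library 1, at 3.64 against 6.89 FPKM. The part of tumour position or of enterocyte content in the carrier levels was not tested, and in bulk tissue fewer cells of a type and less RNA per cell cannot be told apart.

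Several carriers outside the role lists also differed between the knockout libraries. Slc5a8, a sodium-driven carrier of butyrate and lactate known from the distal gut, read 0.764 and 10.3 FPKM in the knockout libraries and 8.83 and 8.82 FPKM in the controls. Slc38a4, or SNAT4, the most abundant carrier in both controls, read 106 and 204 FPKM in the knockout libraries and 180.3 and 174 FPKM in the controls. Slc6a14, a broad carrier of neutral and cationic amino acids, read 0.276 and 2.32 FPKM in the knockout libraries and 1.24 and 1.09 FPKM in the controls. In these 3, knockout library 1 was the lowest library and knockout library 2 the highest. This split was seen for 9 of the 33 tested carriers outside the role lists (27.3%, against 22.6% of all tested rows). It was seen for 0 of the 8 distal markers. Slc6a4, which clears serotonin, ran the other way, as 7.8% of all tested rows did. It read 5.91 and 1.90 FPKM in the knockout libraries and 5.52 and 4.28 FPKM in the controls. These 4 were named after their values were seen.

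**Figure D4:**
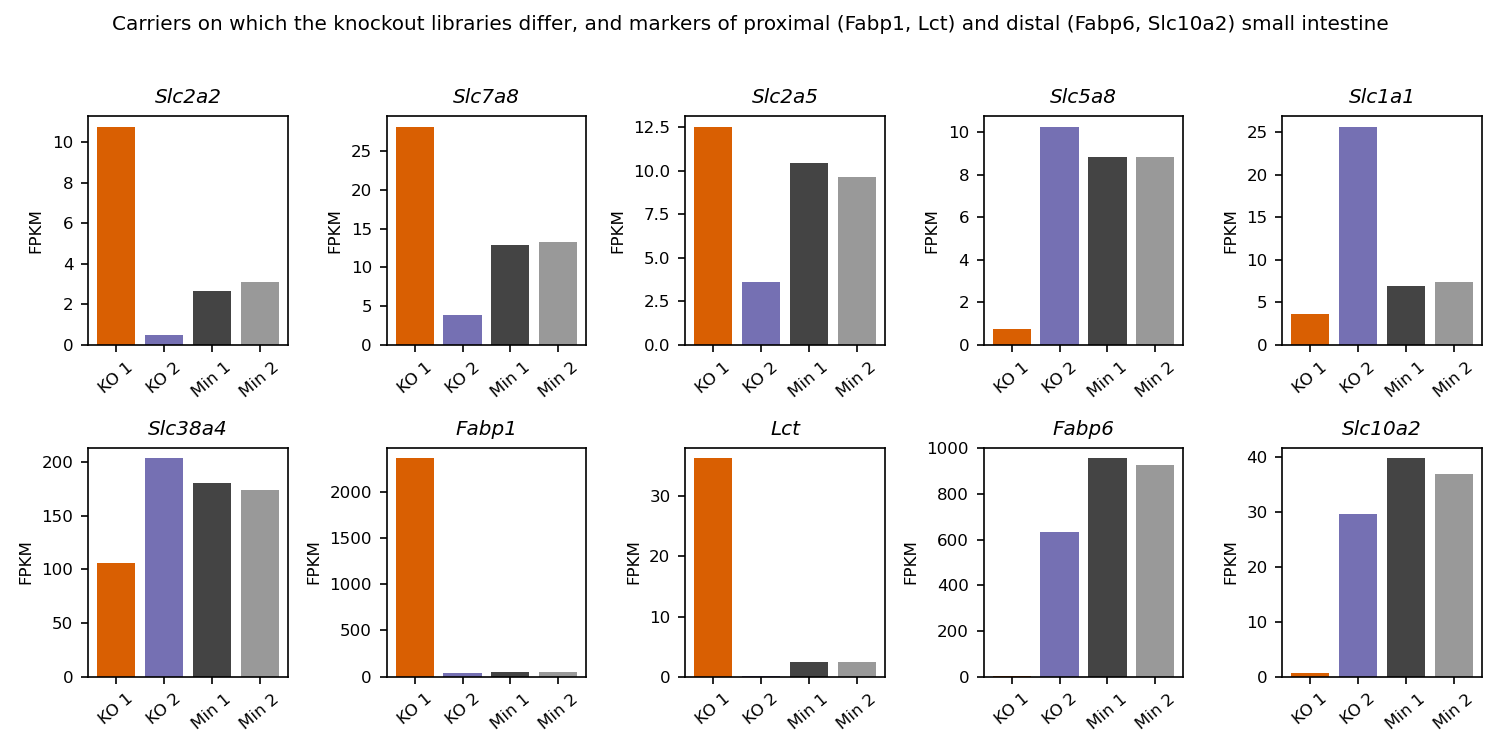
FPKM in each library of 6 carriers on which the knockout libraries differ and of 2 proximal and 2 distal markers of the small intestine; each bar is 1 library, from left PAF KO; APC Min/+ 1 and 2 and APC Min/+ 1 and 2, and axes start at 0. Slc2a2 and Slc7a8 are highest in knockout library 1, as are Fabp1 and Lct, while Slc5a8 is near 0 there, as are Fabp6 and Slc10a2.

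Outside the role lists, 13 tested carriers lay below the controls in both knockout libraries (39.4% of 33, against 30.2% of all rows). Slc6a8, the creatine carrier, read 103 and 52.1 FPKM in the knockout libraries and 119.7 and 113 FPKM in the controls, and Slc6a6, the taurine carrier, read 44.3 and 34.1 FPKM against 51.8 and 50.9 FPKM. Slc6a9, or GLYT1, which takes up glycine, read 14.0 and 9.13 FPKM against 17.7 and 18.9 FPKM. The biotin and pantothenate carrier Slc5a6 read 1.91 and 1.61 FPKM against 2.64 and 2.75 FPKM. For Slc6a9 the log2 fold change was -0.65 (SE 0.253; limma adjusted p = 0.398).

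Slc7a15, a carrier of aromatic amino acids in mouse, read 5.04 and 0.496 FPKM in the knockout libraries and 7.77 and 7.58 FPKM in the controls, so that knockout library 2 held 6.47% of the control mean. Slc7a2, or CAT2, an arginine carrier, read 0.592 and 1.14 FPKM in the knockout libraries and 1.62 and 1.63 FPKM in the controls. Slc2a8, or GLUT8, a sugar carrier of internal membranes, read 3.15 and 2.98 FPKM against 4.73 and 7.44 FPKM, and the amino acid carrier Slc36a4, or PAT4, read 1.997 and 2.87 FPKM against 4.03 and 4.49 FPKM. For Slc2a8 the control libraries themselves differed more than the knockout libraries did. Slc38a7, which exports glutamine from lysosomes, and Slc38a10 differed by -0.41 (SE 0.168) and -0.31 (SE 0.168) on the log2 scale, each without overlap.

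Among the 62 tested carriers, 5 besides Slc16a1 and Slc5a9 were above the controls in both knockout libraries. Slc5a3, which takes up the osmolyte inositol, read 1.59 and 2.22 FPKM in the knockout libraries and 0.533 and 0.479 FPKM in the controls (log2 fold change 0.94, SE 0.247; limma adjusted p = 0.317). Slc15a3, which moves peptides and histidine out of lysosomes and is known from macrophages, read 7.70 and 5.37 FPKM against 4.24 and 4.28 FPKM. The 8 macrophage markers summed to 136 and 238 FPKM in the knockout libraries and 182 and 193 FPKM in the controls, with 0 of 8 at 0. Of them, 1 was above both controls in both knockout libraries and 1 below. In 6, library 1 lay below and library 2 above both controls (75.0%, against 22.6% of all tested rows). The part of macrophage RNA in the level of Slc15a3 was not tested. Slc43a3, a carrier of purine bases, read 7.58 and 10.7 FPKM in the knockout libraries against 6.57 and 6.06 FPKM in the controls. Slc16a13, of the monocarboxylate family, had a log2 fold change of 0.17 (SE 0.167). That of Slc38a6, of the amino acid carrier family of Slc38a1, was 0.11 (SE 0.199).

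RNA of cells other than enterocytes also differed between the knockout libraries. The 8 smooth muscle markers summed to 203 and 734 FPKM in the knockout libraries and 191 and 192 FPKM in the controls, and the 6 fibroblast markers to 332.5 and 685 FPKM against 262 and 266 FPKM, with none at 0. Slc2a4, the insulin-responsive glucose carrier of muscle and fat, read 0.802 and 1.93 FPKM in the knockout libraries and 1.17 and 1.07 FPKM in the controls. The inositol carrier Slc2a13 read 0.899 and 2.23 FPKM in the knockout libraries and 1.06 and 1.15 FPKM in the controls. Both, named after their values were seen, were highest in knockout library 2, which had the most smooth muscle RNA. In knockout library 1 both lay below the controls, though the smooth muscle sum lay above them. Such a split, library 1 below and library 2 above both controls, held for 22.6% of all tested rows. The part of smooth muscle RNA in these values was not tested. The 6 markers of goblet cells, which are epithelial, summed to 4450.1 and 6203 FPKM in the knockout libraries and 2740.1 and 3050.4 FPKM in the controls. Both knockout libraries lay above both controls for 4 of the 5 goblet markers tested (80.0%, against 21.5% of all rows). Of these 5, 3 were higher at an unadjusted p under 0.05 (60.0%, against 3.44% of all tested rows), and limma called 0. The 7 neutrophil markers summed to 446 and 251 FPKM against 271 and 335 FPKM, a sum made mostly of Lcn2, which epithelium also expresses. Of the 5 tested, 4 were above both controls in both knockout libraries with an unadjusted p under 0.05, where 3.44% of all tested rows were higher at that p; limma called 0. S100a8, a neutrophil granule protein, read 63.1 and 51.0 FPKM in the knockout libraries and 6.59 and 13.2 FPKM in the controls. The part of neutrophil RNA in the carrier levels was not tested.

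Family sums of Slc1, Slc3, Slc5, Slc6, Slc15, Slc36 and Slc43 lay below both controls in both knockout libraries. Those of Slc2, Slc7, Slc16 and Slc38 lay on either side, and no family sum was above both controls in both. The Slc3 sum was 170 and 48.8 FPKM in the knockout libraries against 207 and 215 FPKM in the controls. For Slc5 it was 85.5 and 66.6 FPKM against 117 and 114 FPKM. The Slc6 family summed to 198 and 113 FPKM in the knockout libraries and 296 and 275 FPKM in the controls, and 5 of its 7 tested members lay below the controls in both knockout libraries (71.4%, against 30.2% of all rows). The Slc15 peptide carriers summed to 32.3 and 27.8 FPKM in the knockout libraries and 51.6 and 49.5 FPKM in the controls. Among the tested members only Slc15a1 was below both controls in both knockout libraries. Slc15a3 was above them in both, and for Slc15a4 the knockouts lay on either side. Facilitated sugar carriers of the Slc2 family summed to 172 and 104 FPKM in the knockout libraries and 169 and 169.9 FPKM in the controls, most of it Slc2a1. The Slc7 family summed to 195 and 132 FPKM in the knockout libraries and 189.7 and 189.5 FPKM in the controls, and the Slc16 family to 261 and 109.6 FPKM against 232 and 234 FPKM, so that knockout library 1 was highest for both. The Slc38 family was lowest in knockout library 1, at 213 FPKM, and read 318 FPKM in knockout library 2 against 312 and 297 FPKM in the controls. Slc38a4 was the largest Slc38 member in every library, and Slc16a3 the largest Slc16 member in all but knockout library 2.

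The 43 carriers below a mean of 1 FPKM were not tested, and both knockout libraries lay above both controls in 10 of them and below in 8. Over the tested rows, which lie above that level, these shares were 21.5% and 30.2%. The shares over all rows below it were not computed, so the 2 counts have no like background. Of these, 4 were listed at 0 in all libraries, namely Slc36a3, Slc5a2, Slc7a12 and Slc7a13, and 8 exceeded 1 FPKM in at least 1 library. Slc1a3, a glutamate carrier of glia and other cells, read 2.40 FPKM in knockout library 1 and 0.122 FPKM in knockout library 2, against 0.0688 and 0 FPKM in the controls. Slc16a14 read 1.36 and 0 FPKM in the knockout libraries against 0.128 and 0.121 FPKM in the controls. Both were named after their values were seen. At this depth values near 0.05 FPKM rest on a few fragments.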

How the data were processed

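RNA from mouse intestinal adenomas was extracted with a column kit and sequenced by Illumina methods (per the labels' protocols). As deposited by the authors, FPKM values fill 1 table with a column for each of the 4 libraries. The submitters' processing notes name TopHat2, Cuffdiff and mm9, without versions; settings and gene models were not stated. The values are scaled for depth and length, so no count test was used. The table held 29955 rows, of which 84 repeated a symbol, and the higher row was kept. For rows averaging 1 FPKM or more, limma 3.58.1 (R 4.3.3) was run on log2(FPKM + 1), with a trend on mean expression and Benjamini-Hochberg adjustment over all 13716 of them; the scale understates changes of low genes. On simulated data with the same group sizes the fit missed most of the smaller changes, and its false calls were about as many as the calls in the real table, so neither the calls over all rows nor the lack of calls among carriers is firm.

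Sequences came from RefSeq on GRCm38.p6, and no coordinate was used for the FPKM values. For depth, 4920 genes having a single transcript of 1000 bases or longer were used. The members, role lists and tests were chosen with earlier results of these data known. Named genes are those of the 3 role lists and, among the other tested carriers, in each direction up to 10 of smallest p without overlap between groups. Alternatives were pseudocounts of 0.1 and 0.01, no filter or one at 5 FPKM, quantile scaling, median centring, limma without the trend, the replicate number as a block, and leaving out each library. Some genes of the lists are counted in them but not reported here.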

Additional observations from a re-analysis of the deposited data

How the results depend on the processing

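With 2 libraries a group, the call of 0 carriers held under the 2 other pseudocounts, both filters, both scalings, limma without the trend, the block and without either control library. It was 45 without knockout library 1 and 23 without knockout library 2, a range of 0 to 45, where the lone knockout library is assumed to vary like the controls. Over all tested rows the count of 10 was 4 with no filter and 0 to 8397 with a library left out, 8397 without knockout library 1, 2833 without knockout library 2 and 0 without either control library (limma, with 251 and 274 rows at an unadjusted p under 0.05). Same-numbered libraries did not deviate together (r = -0.11 across rows); the fit with the replicate block called 13 rows and 0 carriers, and so did a crossed pairing, chosen after seeing the data. The median over carriers was -0.093 with no filter and -0.42 to -0.16 with a library left out. The median was -1.39 to 0.15 for basolateral carriers, -1.26 to -0.24 for apical carriers and -0.52 to -0.16 for growing-cell carriers. Pseudocounts of 0.1 and 0.01 gave -1.25 for the apical median of -0.69. The count of 29 carriers below both controls was 40 with knockout library 1 alone and 42 with knockout library 2 alone, also chosen after seeing the data.

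Of 51 named carriers tested, 7 of them named after their values were seen, 2 turned sign under other settings: Slc2a2 (0.12), to -0.20 and -0.28 with pseudocounts of 0.1 and 0.01, and Slc7a7 (-0.036), to 0.016 with quantile scaling and 0.021 with median centring. With a library left out, 17 turned sign, with log2 fold changes of -0.80 to 1.70 for Slc1a1, -1.26 to 0.29 for Slc2a5, -0.23 to 0.025 for Slc36a1, -2.05 to 0.088 for Slc5a11, -1.05 to 0.078 for Slc5a4a, -1.35 to 1.5996 for Slc2a2, -0.22 to 0.15 for Slc7a7, -1.55 to 1.05 for Slc7a8, -2.26 to 0.046 for Slc16a3, -0.034 to 0.14 for Slc38a2, -0.26 to 0.079 for Slc7a1, -2.48 to 0.20 for Slc5a8, -0.73 to 0.20 for Slc38a4, -0.76 to 0.62 for Slc6a14, -1.02 to 0.23 for Slc6a4, -0.23 to 0.47 for Slc2a4 and -0.15 to 0.61 for Slc2a13. The cause of these turns was not tested.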
